A study of Mus musculus with 13 samples.

Results

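Chromatin accessibility at the Hoxa and Hoxb gene clusters and at Meis1 was compared between 3 kinds of mouse haematopoietic stem cell (HSC). The regions were chosen by position alone: every accessible region whose midpoint lay in 1 of 3 windows of the mm9 genome build, chr6:52095000-52220000 for Hoxa, chr11:96120000-96235000 for Hoxb and chr11:18760000-18940000 for Meis1. The windows held 95 of the 115295 regions of the count table, 30 at Hoxa, 34 at Hoxb and 31 at Meis1. They are numbered here by rising coordinate as A1 to A30, B1 to B34 and M1 to M31.

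HOX proteins are homeodomain transcription factors encoded in clusters, in which neighbouring genes tend to share regulatory DNA and to be expressed in the order of their position. In blood formation, Hoxa9, Hoxa10, Hoxa7 and Hoxa5 of the Hoxa cluster are expressed in stem and early progenitor cells and decline with maturation, and forced Hoxb4 expression expands HSCs. Hoxb5 is used as a marker of long-term HSCs in mice, while Hoxb2 and Hoxb3 are its anterior neighbours in the cluster. Meis1 encodes a homeodomain partner that binds DNA together with HOX proteins, is needed to maintain HSCs and drives leukaemia together with Hoxa9.

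The cells were HSCs of C57BL/6 mice, recovered from the bone marrow of recipients that had been transplanted with a single Vwf+ HSC, a cell from the subset that expresses von Willebrand factor. The recipients fell into 3 classes by which blood lineages reappeared during 16 weeks: multilineage (MUL-HSC, n = 4 libraries), PEM-restricted (PEM-HSC, n = 6) and P-restricted, labelled PLT-HSC (n = 3). All groups were sorted alike as donor-derived (CD45.2+), Gata1- LSK Flt3- CD150+ CD48- cells, with 500 cells per replicate, so the groups share the HSC phenotype and differ in the lineages that their recipient had restored. Omni-ATAC-seq was used, in which a transposase inserts sequencing adapters into open DNA, so that reads pile up where chromatin is accessible. The labels do not say that each library came from a recipient of its own, so the spread behind each p-value, which is that between libraries, may be technical. The table names no genes, so the sorted phenotype could not be checked against marker genes.

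In the GRCm38.p6 annotation of RefSeq, the Hoxb genes were ordered by the start coordinate of their entries alone. That order was Hoxb13, Hoxb9, Hoxb8, Hoxb7, Hoxb6, Hoxb5, Hoxb3, Hoxb4, Hoxb2 and Hoxb1. Overlap between entries was not examined, so neighbours such as Hoxb3 and Hoxb4 may be ordered otherwise by their gene starts. The end of lower coordinate of the Hoxb window is therefore that on the Hoxb9 and Hoxb13 side of the order. Whether these genes lie inside or outside the window was not determined. Because that annotation is of another build than the regions, no region was assigned to a gene or placed in an exon, intron or promoter. RefSeq promoter sequences were found for 6 of the 9 genes that name the windows (Hoxa5, Hoxa7, Hoxa9, Hoxa10, Hoxb4 and Meis1). None was found for Hoxb2, Hoxb3 and Hoxb5.

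Promoters of 4 of these genes are printed as background, to show how the DNA at their starts differs in CpG content. Each covers 250 bases before and 50 bases after the gene start, 5′ to 3′ on the gene's strand, with every CG dinucleotide in capitals. Hoxa5 (chr6:52204538-52204837, minus strand) and Hoxa9 (chr6:52227321-52227620, minus strand) are the Hoxa promoters with the most and the fewest CG, and Hoxb4 (chr11:96318017-96318316, plus strand) and Meis1 (chr11:19018920-19019219, minus strand) stand for the other windows, all in GRCm38.p6.
Hoxa5: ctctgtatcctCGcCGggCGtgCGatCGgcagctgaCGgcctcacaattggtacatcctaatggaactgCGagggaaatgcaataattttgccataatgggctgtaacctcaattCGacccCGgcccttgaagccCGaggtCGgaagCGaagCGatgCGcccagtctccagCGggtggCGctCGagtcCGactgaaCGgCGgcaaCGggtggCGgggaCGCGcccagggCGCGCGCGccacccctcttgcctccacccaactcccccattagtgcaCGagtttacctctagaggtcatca
Hoxa9: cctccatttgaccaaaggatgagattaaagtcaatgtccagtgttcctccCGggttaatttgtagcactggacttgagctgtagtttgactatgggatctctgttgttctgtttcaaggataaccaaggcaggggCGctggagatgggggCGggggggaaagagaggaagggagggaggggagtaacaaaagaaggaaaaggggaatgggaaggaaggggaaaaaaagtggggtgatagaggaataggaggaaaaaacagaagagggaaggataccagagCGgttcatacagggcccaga
Hoxb4: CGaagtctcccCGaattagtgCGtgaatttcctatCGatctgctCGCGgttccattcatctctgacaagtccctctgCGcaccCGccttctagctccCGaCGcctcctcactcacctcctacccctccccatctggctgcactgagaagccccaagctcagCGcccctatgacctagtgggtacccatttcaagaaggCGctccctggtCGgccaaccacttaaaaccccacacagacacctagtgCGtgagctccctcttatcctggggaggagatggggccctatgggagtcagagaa
Meis1: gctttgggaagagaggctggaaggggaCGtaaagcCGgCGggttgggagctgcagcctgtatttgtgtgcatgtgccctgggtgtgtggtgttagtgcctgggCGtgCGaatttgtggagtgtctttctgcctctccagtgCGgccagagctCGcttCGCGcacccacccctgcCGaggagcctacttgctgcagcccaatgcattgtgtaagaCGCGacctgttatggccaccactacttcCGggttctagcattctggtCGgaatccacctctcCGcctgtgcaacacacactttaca
The Hoxa5 promoter held 29 CG and the Hoxa9 promoter 4, while Hoxb4 held 14 and Meis1 15. Of the promoters not printed, Hoxa7 held 9, and those of the Hoxa10 starts held 21 and 12. A CG, which reads the same on both strands, occurred in 94.6% of the 32851 RefSeq promoters of 300 bases, with a median of 7 per promoter. Fewer CG than at Hoxa5 were found in 87.1% of all promoters, and fewer than at Hoxa9 in 31.4%. These counts describe the DNA at the gene starts and were not joined to any accessibility value.

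Library totals over all regions ran from 1276962 to 3851165 counts, and 5 libraries lay under 2000000: replicates 1 and 2 of MUL-HSC, as well as replicates 2, 3 and 6 of PEM-HSC. No PLT-HSC library was that shallow, so depth and group are partly linked. Of the 95 regions, 73 passed the filter on low counts and were tested (25 at Hoxa, 29 at Hoxb and 19 at Meis1), against 59408 of all regions. The 22 others, 5 at Hoxa, 5 at Hoxb and 12 at Meis1, had mean levels of 0.623 to 3.13 CPM, the usual scale of counts over the library's total, and were described but not tested. One library stood apart inside the Hoxa window: PEM-HSC replicate 2 was low over 13 neighbouring regions, as described further on. Differences in the Hoxa window total that involve PEM-HSC, and the sum over those regions, are given with and without it. Region fold changes are of fits that include it, unless another fit is named.

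All 3 windows were rich in accessible regions. Per 100 kb, the Hoxa window held 24.0 regions against 10.4 and 8.0 in flanking stretches of the same length, the Hoxb window 29.6 against 8.70 and 11.3, and the Meis1 window 17.2 against 5.56 and 2.78. Tested regions had a median level of 20.4 CPM per kb of region at Hoxa, 18.5 at Hoxb and 15.8 at Meis1, and of 13.5 over all tested regions. The windows were thus densely covered by regions of somewhat higher level per length than the table's median.

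At Hoxa the highest levels per length lay in the middle of the window. A17 (chr6:52167447-52167753) reached 81.4 CPM per kb, A20 68.5 and A15 59.1. At Hoxb the highest was B8 (chr11:96140110-96140448) with 48.2 CPM per kb, and at Meis1 it was M27 (chr11:18918611-18919243) with 58.2 CPM per kb. A15, A17, A20 and B8 were singled out after their values were seen. The profile along each window shared its main peaks in MUL-HSC, PEM-HSC and PLT-HSC, as the plot of level by distance shows.

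**Figure D1:**
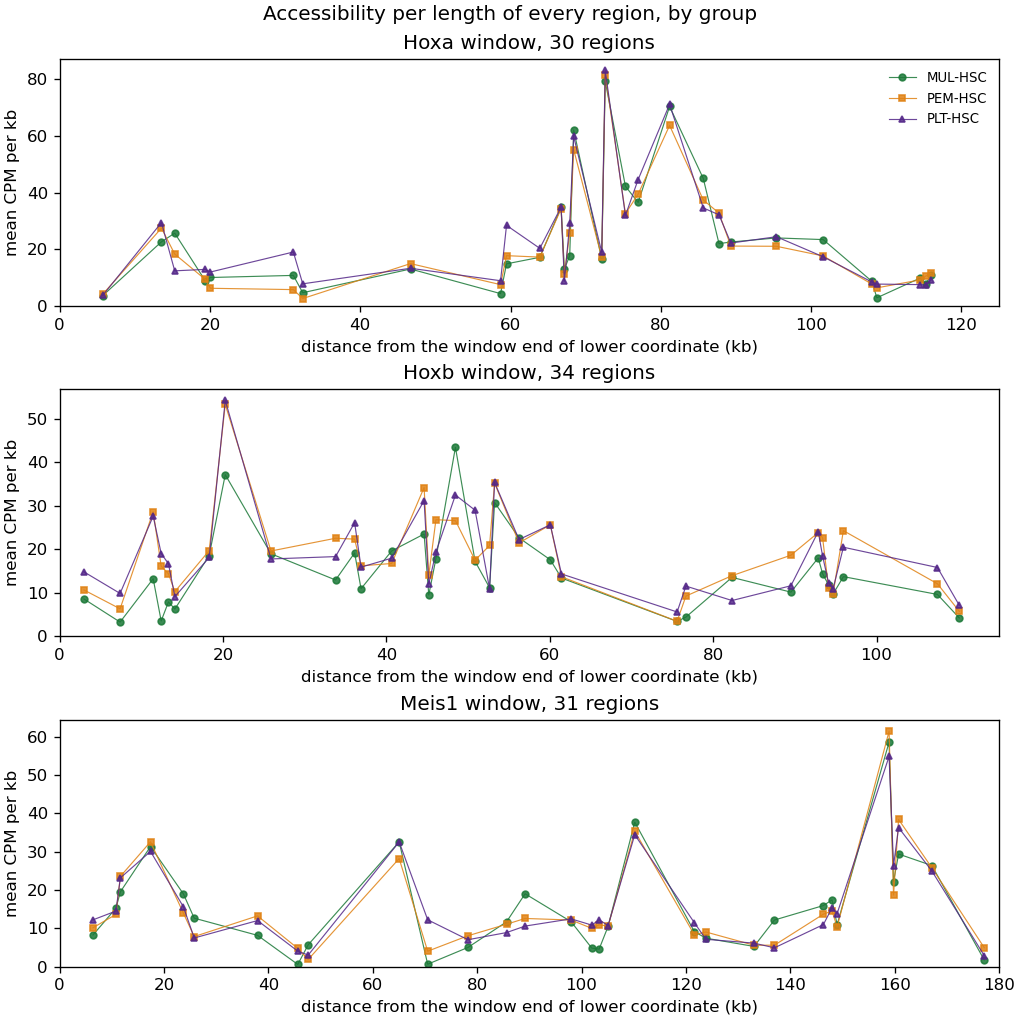
Mean CPM per kb of region (vertical axis) of every region in the Hoxa, Hoxb and Meis1 windows against its distance in kb from the window's end of lower coordinate, with 1 line for each of MUL-HSC (n = 4), PEM-HSC (n = 6) and PLT-HSC (n = 3). The 3 lines share their peaks, with the highest at A17 (81.4 CPM per kb over the groups), and part most clearly in the first 25 kb of the Hoxb window, where MUL-HSC lies lowest.

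The sum over all regions of a window gives 1 value per library. The Hoxa total was 323, 347, 314 and 330.4 CPM in MUL-HSC replicates 1 to 4, and 379, 328 and 367 CPM in PLT-HSC replicates 1 to 3. In PEM-HSC it ran from 182 through a median of 348 to 406 CPM, and the lowest of these was replicate 2. The groups overlapped at Hoxa, with means of 329 ± 13.9 CPM in MUL-HSC (SD, n = 4), 328 ± 75.9 in PEM-HSC (SD, n = 6) and 358 ± 26.4 in PLT-HSC (SD, n = 3).

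The Hoxb total was 187, 222, 301 and 267 CPM in MUL-HSC replicates 1 to 4, and 361, 279.6 and 309 CPM in PLT-HSC replicates 1 to 3. In PEM-HSC it ran from 297 through 324 to 333 CPM. MUL-HSC replicates 1, 2 and 4 lay below every library of the other groups, whereas MUL-HSC replicate 3 lay among them. On the log2 scale PEM-HSC exceeded MUL-HSC by 0.40 (two-sided exact permutation test, p = 0.0286, 0.257 after Benjamini-Hochberg adjustment over 9 window tests, smallest possible p 0.00952). PLT-HSC exceeded MUL-HSC by 0.39 (two-sided exact permutation p = 0.114, adjusted 0.514, smallest possible 0.0571, so this design could not reach 0.05). Neither difference passed after adjustment, and at these group sizes no single window could have, even at its smallest possible p. The 2 lowest MUL-HSC libraries were also the 2 shallowest of that group, and without the 5 libraries under 2000000 counts the Hoxb differences were 0.15 for both PEM-HSC and PLT-HSC against MUL-HSC.

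The Meis1 total was 360, 355, 310.2 and 343 CPM in MUL-HSC replicates 1 to 4 and 356, 318 and 369 CPM in PLT-HSC replicates 1 to 3. In PEM-HSC it ran from 329 through 351 to 380.4 CPM. Libraries of all groups overlapped, and the log2 differences were 0.02 for PLT-HSC and 0.05 for PEM-HSC against MUL-HSC, with exact permutation p-values of 0.686 and 0.352. For Hoxa the differences were 0.12 (exact permutation p = 0.171) and -0.04 (exact permutation p = 0.819), and the latter was 0.12 without PEM-HSC replicate 2. PLT-HSC and PEM-HSC differed by 0.16 at Hoxa, -0.01 at Hoxb and -0.03 at Meis1, with exact permutation p-values of 0.667, 0.929 and 0.667. The first of these was 0.0022 without PEM-HSC replicate 2.

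**Figure D2:**
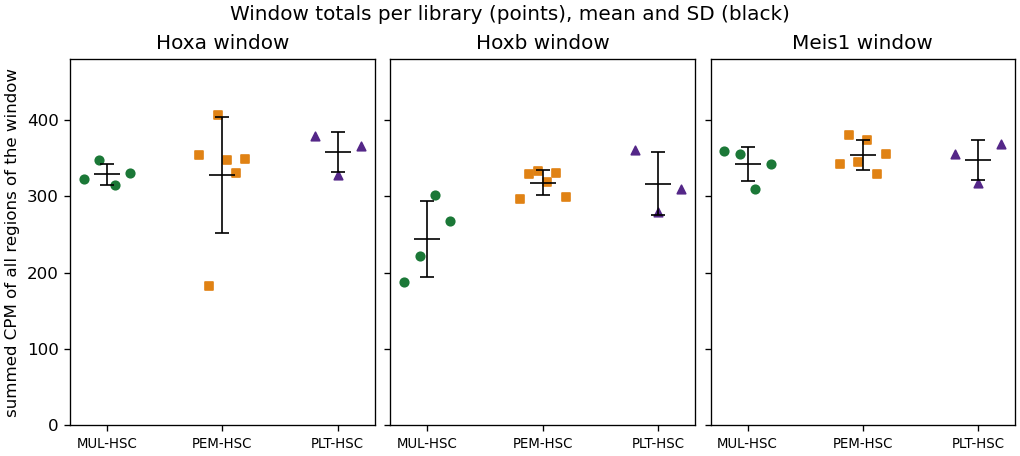
Summed CPM of all regions (vertical axis) of the Hoxa, Hoxb and Meis1 windows, with 1 point per library by group and the group mean ± SD in black. At Hoxb 3 of the 4 MUL-HSC libraries sit below all others, at 187 to 267 CPM, and at Hoxa a single PEM-HSC library sits at 182 CPM.

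A lower signal in a region can come from fewer cells in which it is open or from less signal per cell, and bulk data cannot tell these apart. Against MUL-HSC, PLT-HSC had 3 of 73 tested regions past an adjusted p of 0.05 (edgeR quasi-likelihood test with Benjamini-Hochberg adjustment over all tested regions), B4, B5 and M17, all higher. B4 and M17 passed the filter on low counts only through the groups where they were high, so their direction is not independent of the filter. Over all tested regions 2.41% were called, 1.13% higher and 1.28% lower, and in the windows 4.11%, too few regions to read as an excess. At an unadjusted p under 0.05 there were 14 tested regions of the windows (19.2%), 12 higher and 2 lower in PLT-HSC. Over all tested regions the share was 15.4%, with 4439 higher and 4710 lower. The 14 were 10 at Hoxb and 4 at Meis1, with none at Hoxa.

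PEM-HSC against MUL-HSC gave 2 called regions of the windows, B3 and B4, both higher. The same limit of the filter applies to both, since too few MUL-HSC libraries of B3 reached its level. The background was 0.832% of all tested regions, 0.242% higher and 0.589% lower, beside 2.74% in the windows, again too few regions to read as an excess. At an unadjusted p under 0.05 there were 10 tested regions of the windows (13.7%), 8 higher and 2 lower. Of these, 6 lay at Hoxb and 4 at Meis1. Over all tested regions the share was 13.6%, with 3683 higher and 4423 lower. A joint test for a difference among any of the groups called B3 and B4, against 1.67% of all regions. Both comparisons share the MUL-HSC libraries, so their agreement is not independent.

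PLT-HSC against PEM-HSC called none of the 73 regions with edgeR and none with DESeq2, beside 0.00168% of all tested regions. At an unadjusted p under 0.05 there were 3 regions (A6, B18 and B26), 4.11% of those tested in the windows, beside 4.61% of all. B18 and B26 were singled out after their values were seen.

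The median log2 fold change over the 29 tested Hoxb regions was 0.40 in PLT-HSC and 0.41 in PEM-HSC against MUL-HSC, with 22 and 24 of them above 0 (75.9% and 82.8%, beside 51.4% and 51.9% of all tested regions). Over the 25 Hoxa regions it was 0.04 in both, with PEM-HSC replicate 2 included, and over the 19 Meis1 regions -0.05 and -0.06. The medians over all 59408 tested regions were 0.01 in both comparisons. The Hoxb window total, which sums the same regions, differed less without the shallow libraries, by 0.15 in both comparisons as given above.

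**Figure D3:**
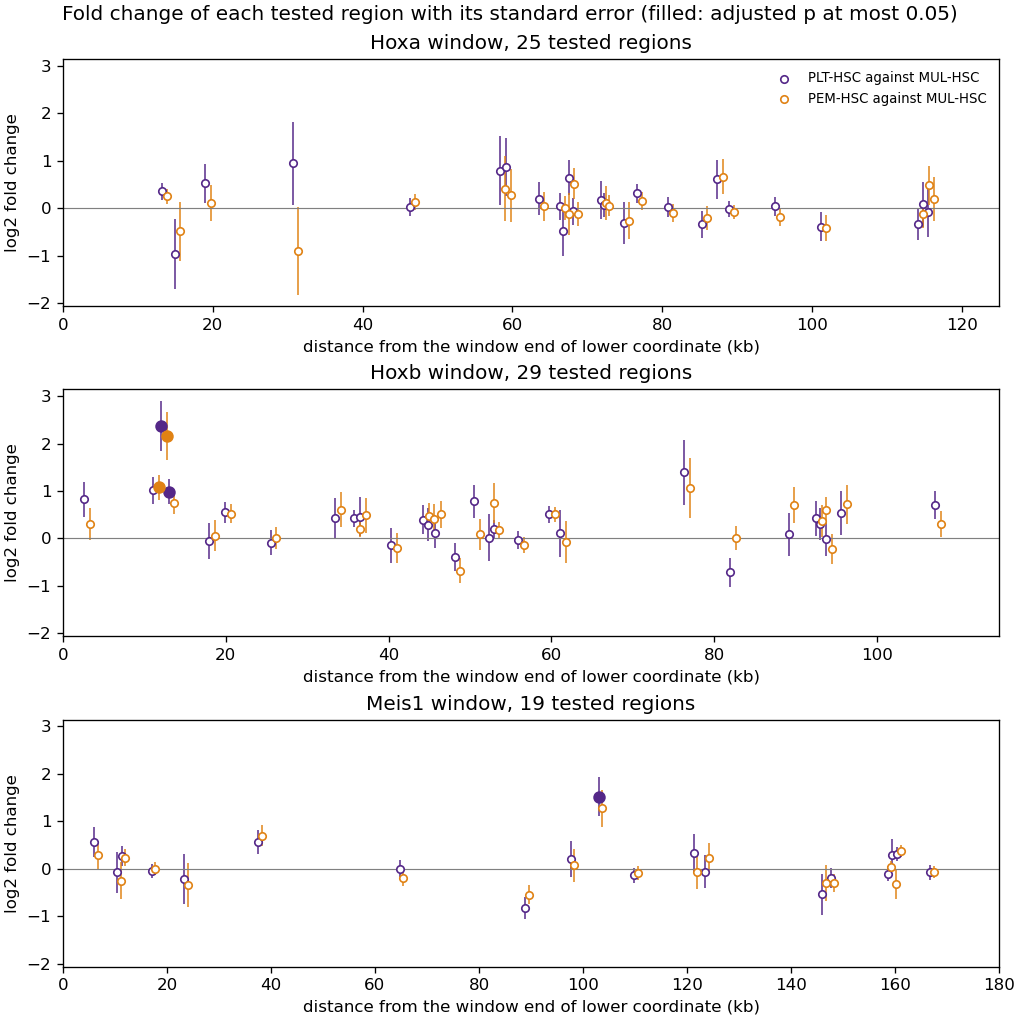
Log2 fold change (vertical axis, bars are standard errors) of each tested region for PLT-HSC and PEM-HSC against MUL-HSC, against distance in kb from the end of lower coordinate of the Hoxa, Hoxb and Meis1 windows. Filled points passed an adjusted p of 0.05, and they are B4, B5 and M17 for PLT-HSC and B3 and B4 for PEM-HSC.

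The 3 called Hoxb regions were neighbours. B3 (chr11:96131257-96131657), B4 (chr11:96132260-96132611) and B5 (chr11:96132750-96133905) together spanned 2648 bp, with gaps of 603 and 139 bp, near the window's end of lower coordinate. Neighbouring regions share fragments and chromatin, so they are not independent of each other.

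B4 had the largest fold change of all tested regions of the windows in both comparisons with MUL-HSC. Its level was 0.575, 1.49, 1.85 and 1.04 CPM in MUL-HSC replicates 1 to 4, from 1, 2, 4 and 3 counts. It was 9.57, 8.37 and 2.11 CPM in PLT-HSC replicates 1 to 3, from 32, 20 and 7 counts, and 2.14 to 7.66 CPM with a median of 5.88 in PEM-HSC. Every PLT-HSC and PEM-HSC library lay above every MUL-HSC library, although PLT-HSC replicate 3 and PEM-HSC replicate 3 came close to the highest of these. The log2 fold change was 2.37 ± 0.53 (SE) for PLT-HSC (adjusted p = 0.0150, edgeR) and 2.16 ± 0.50 for PEM-HSC (adjusted p = 0.0338, edgeR). B4 passed the filter on low counts only through the groups where it was high, and it was not tested when PLT-HSC and MUL-HSC alone were fitted. The PLT-HSC call was lost on leaving out MUL-HSC replicate 1 (adjusted p = 0.0598) or 4 (0.0744), or else replicate 1 (0.131) or 2 (0.0601) of PLT-HSC. The PEM-HSC call was lost on leaving out MUL-HSC replicate 1 (adjusted p = 0.139), 2 (0.0938) or 4 (0.171), or else replicate 1 (0.0617), 2 (0.0587) or 5 (0.0891) of PEM-HSC.

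B3 lay just below B4 in coordinate and at a higher level. It would not have passed the filter on low counts by its MUL-HSC libraries alone, so its direction is not independent of the filter either. It had 4.02, 3.73, 7.87 and 5.56 CPM in MUL-HSC replicates 1 to 4, 13.2, 10.05 and 9.96 CPM in PLT-HSC replicates 1 to 3, and 7.38 to 14.7 CPM with a median of 11.5 in PEM-HSC. MUL-HSC replicate 3 exceeded the lowest PEM-HSC library, replicate 6, and all other MUL-HSC values were below both other groups. The log2 fold change was 1.08 ± 0.26 (SE) for PEM-HSC (adjusted p = 0.0426, edgeR) and 1.01 ± 0.29 for PLT-HSC (adjusted p = 0.0585, not called). The PEM-HSC call was lost on leaving out MUL-HSC replicate 1 (adjusted p = 0.171), 2 (0.146) or 4 (0.161), or else replicate 1 (0.0682), 2 (0.0546), 3 (0.0532), 4 (0.0641) or 5 (0.105) of PEM-HSC. PLT-HSC passed without MUL-HSC replicate 3 (adjusted p = 0.0289, edgeR).

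B5 was the widest of the 3. Its level was 7.47, 3.73, 13.9 and 11.5 CPM in MUL-HSC replicates 1 to 4, 24.8, 18.8 and 14.2 CPM in PLT-HSC replicates 1 to 3, and 11.4 to 19.3 CPM with a median of 17.6 in PEM-HSC. PLT-HSC lay above MUL-HSC in every library, whereas PEM-HSC overlapped with MUL-HSC. The log2 fold change was 0.99 ± 0.27 (SE) for PLT-HSC (adjusted p = 0.0443, edgeR) and 0.75 ± 0.24 for PEM-HSC (adjusted p = 0.136, not called). The PLT-HSC call was lost on leaving out MUL-HSC replicate 1 (adjusted p = 0.139), 2 (0.128) or 4 (0.0824), or else replicate 1 of PEM-HSC (0.0560), or replicate 1 (0.287) or 2 (0.103) of PLT-HSC.

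In B3 and B5 the lowest levels within MUL-HSC were those of its shallow libraries, replicates 1 and 2. Within PEM-HSC the lowest level was also that of a shallow library, replicate 6 in B3 and B5 and replicate 3 in B4. Not every shallow PEM-HSC library was low, as replicate 2 had the highest level of its group in B5 (19.3 CPM). The part of depth in these differences was not tested. Without the 5 libraries under 2000000 counts, which leaves 2 MUL-HSC libraries, the fold changes of B4 were 2.20 for PLT-HSC (adjusted p = 0.134, edgeR) and 2.12 for PEM-HSC (adjusted p = 0.338), that of B3 was 0.97 for PEM-HSC (adjusted p = 0.383), and that of B5 was 0.62 for PLT-HSC (adjusted p = 0.359). The B4 and B3 values were thus close to those with every library and that of B5 was smaller, while none passed the threshold with fewer libraries. DESeq2 called B4 in both comparisons with MUL-HSC but neither B5 for PLT-HSC (adjusted p = 0.0592) nor B3 for PEM-HSC (adjusted p = 0.0658). It was run on the same filtered regions, so B4 again entered only through the groups where it was high. With a surrogate variable in the edgeR model no region was called, and the log2 fold changes were 0.839 and 0.997 for B4 in PLT-HSC and PEM-HSC, 0.81 for B3 in PEM-HSC and 0.18 for B5 in PLT-HSC.

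The first 25 kb of the Hoxb window hold B1 to B8, and their summed level followed the same order. The sum of these 8 regions was 32.2, 32.9, 60.7 and 38.3 CPM in MUL-HSC replicates 1 to 4, 90.9, 69.5 and 61.3 CPM in PLT-HSC replicates 1 to 3 and 47.7 to 82.4 CPM in PEM-HSC. All but MUL-HSC replicate 3 were below the other groups. The log2 ratio of group means was 0.85 for PLT-HSC and 0.73 for PEM-HSC against MUL-HSC there, against 0.19 to 0.28 and 0.24 to 0.43 over the next 3 steps of 25 kb and 0.72 and 0.34 over the last, shorter step with its 2 regions. The flank of lower coordinate, outside the window, had ratios of 0.44 and 0.40, and the flank of higher coordinate 0.11 and 0.23. These sums are descriptions without a test. The sum of the first 25 kb includes the called regions B3, B4 and B5, so its agreement with them is not independent.

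Elsewhere in Hoxb the strongest regions moved less. B22 (chr11:96179453-96180684) had 20.7, 15.7, 25.9 and 24.3 CPM in MUL-HSC replicates 1 to 4, 33.2, 30.1 and 31.4 CPM in PLT-HSC replicates 1 to 3 and 24.0 to 40.7 CPM in PEM-HSC. PLT-HSC lay above MUL-HSC throughout, but its log2 fold change of 0.51 ± 0.17 (SE) did not pass (adjusted p = 0.123, edgeR), nor did that of PEM-HSC at 0.51 ± 0.16 (adjusted p = 0.111). B20 (chr11:96172841-96173656), at 33.8 CPM per kb, had log2 fold changes of 0.20 and 0.17, and B11 (chr11:96155650-96156579) 0.43 and 0.20, in PLT-HSC and PEM-HSC, none called. Of the Hoxb regions with an unadjusted p under 0.05, only B26 in PLT-HSC (-0.71) and B17 in PEM-HSC (-0.68) had negative fold changes against MUL-HSC. Both were singled out after their values were seen.

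At Meis1 a single region was called. M17 (chr11:18863093-18863650) had 3.45, 3.73, 0.926 and 2.09 CPM in MUL-HSC replicates 1 to 4, 8.07, 4.19 and 8.15 CPM in PLT-HSC replicates 1 to 3 and 3.94 to 10.1 CPM with a median of 5.61 in PEM-HSC. Every library of both restricted groups exceeded every MUL-HSC library, by little at the nearest. The log2 fold change was 1.52 ± 0.42 (SE) for PLT-HSC (adjusted p = 0.0446, edgeR) and 1.27 ± 0.39 for PEM-HSC (adjusted p = 0.108, not called). M17, with 2 to 6 counts in the MUL-HSC libraries, also entered the test only through the groups where it was high, and a filter at a mean of 20 counts removed it. The PLT-HSC call was lost on leaving out any 1 of the 4 MUL-HSC libraries (adjusted p = 0.0679, 0.0590, 0.112 and 0.149 for replicates 1 to 4), or else replicate 6 of PEM-HSC (0.0530), or replicate 1 (0.192) or 3 (0.104) of PLT-HSC. With the shallow libraries set aside, its log2 fold change was 2.11 (adjusted p = 0.0677), and DESeq2 did not call it either (adjusted p = 0.0952).

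M14, also in the Meis1 window, had values in the other direction that did not pass the test. M14 (chr11:18848725-18849657), 13.4 kb from it, had 19.5, 20.2, 16.2 and 15.0 CPM in MUL-HSC replicates 1 to 4, 7.77, 10.05 and 11.8 CPM in PLT-HSC replicates 1 to 3 and 7.73 to 13.9 CPM in PEM-HSC. All MUL-HSC libraries lay above all others, but the log2 fold change of -0.82 ± 0.23 (SE) for PLT-HSC missed the threshold (adjusted p = 0.0542, edgeR), as did -0.55 ± 0.20 for PEM-HSC (adjusted p = 0.189). For PLT-HSC it passed on leaving out replicate 3 of MUL-HSC (adjusted p = 0.0481), replicate 2 (0.0454) or 3 (0.0484) of PEM-HSC, or replicate 3 of PLT-HSC (0.0394).

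M7 (chr11:18797320-18798547) had 11.5, 9.71, 11.6 and 7.30 CPM in MUL-HSC replicates 1 to 4, 13.5, 18.4 and 12.4 CPM in PLT-HSC replicates 1 to 3 and 13.01 to 22.1 CPM in PEM-HSC. All MUL-HSC libraries lay below the others, with log2 fold changes of 0.56 ± 0.25 (SE) for PLT-HSC (adjusted p = 0.260, edgeR) and 0.70 ± 0.22 for PEM-HSC (adjusted p = 0.118), neither called. The regions with the most counts in the window, M4 (chr11:18776516-18778323), M19 (chr11:18869643-18870756) and M27, had fold changes of -0.14 to 0.04 in both comparisons with MUL-HSC. M4 stood at 56.6 ± 3.35 CPM in MUL-HSC (SD, n = 4), 58.8 ± 11.3 in PEM-HSC (SD, n = 6) and 54.3 ± 10.7 in PLT-HSC (SD, n = 3).

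**Figure D4:**
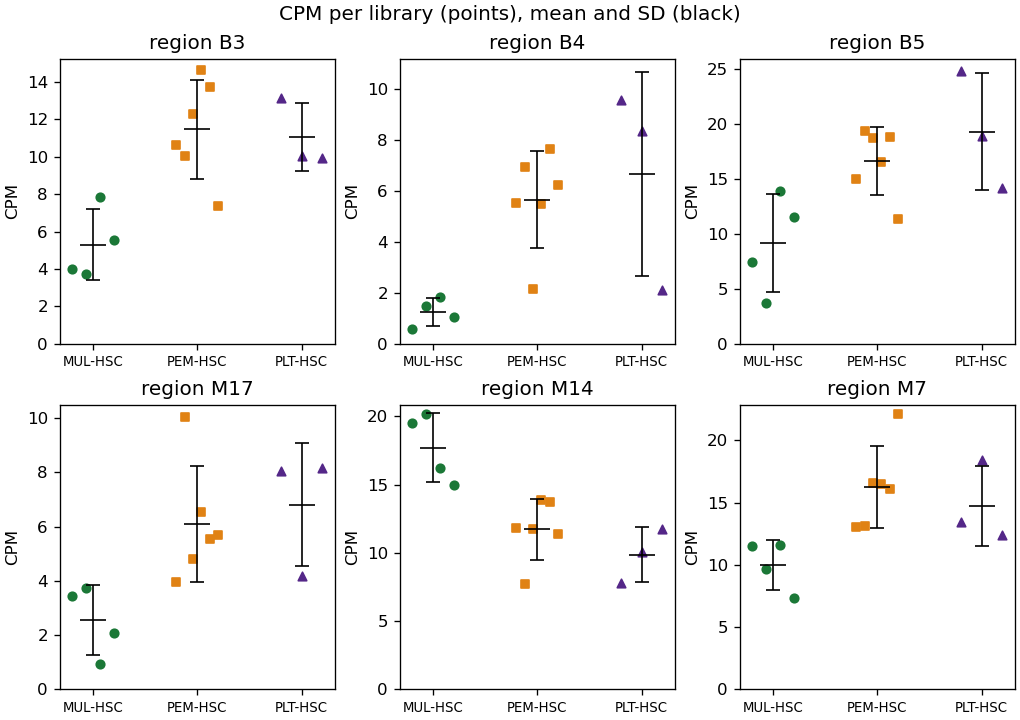
CPM (vertical axis) of the Hoxb regions B3, B4 and B5 and the Meis1 regions M17, M14 and M7, with 1 point per library by group and the group mean ± SD in black. MUL-HSC sits lowest on average in all panels but M14, where its 4 libraries, at 15.0 to 20.2 CPM, sit above all others.

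No Hoxa region was called in any comparison. A6 (chr6:52125911-52126292), the Hoxa region of smallest p in the joint test, had 7.47, 5.97, 0.926 and 2.09 CPM in MUL-HSC replicates 1 to 4, 8.67, 5.86 and 7.25 CPM in PLT-HSC replicates 1 to 3, and in PEM-HSC 0 to 1.57 CPM in 5 libraries and 10.2 CPM in replicate 3. PLT-HSC against PEM-HSC gave a log2 fold change of 1.85 ± 0.83 (SE), with an unadjusted p of 0.0456 and an adjusted p of 1.0 (edgeR). The fold change was 3.23 without PEM-HSC replicate 3 (adjusted p = 0.0409, edgeR), so a single library decided this call, and 3.02 without the libraries under 2000000 counts (adjusted p = 0.0488), which leave it out too. In neither fit did a PEM-HSC library reach the level of the filter on low counts. A6 thus entered both fits only through the other groups, so its direction is not independent of the filter.

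A2 (chr6:52108031-52109075) and A14 (chr6:52162714-52163033) followed A6 in the joint test. A2 stood at 23.7 ± 4.06 CPM in MUL-HSC (SD, n = 4), 28.7 ± 6.85 in PEM-HSC (SD, n = 6) and 30.7 ± 2.71 in PLT-HSC (SD, n = 3). A14 had 3.45, 5.23, 6.02 and 8.0 CPM in MUL-HSC replicates 1 to 4 and 8.07, 10.5 and 9.36 CPM in PLT-HSC replicates 1 to 3, and differed by 0.64 ± 0.36 (SE) on the log2 scale (adjusted p = 0.416, edgeR). The PLT-HSC libraries of A14 all lay above the MUL-HSC libraries, but the nearest values were almost equal. In PEM-HSC, A14 had 0.773 CPM in replicate 2 and 8.45 to 10.7 CPM in the other libraries. Among the strongest regions A19 (chr6:52171449-52172506) had log2 fold changes of 0.31 and 0.15 and A23 (chr6:52183555-52185072) of -0.02 and -0.09 in PLT-HSC and PEM-HSC against MUL-HSC, with adjusted p-values of 0.517 to 0.983 (edgeR). Without replicate 2, the PEM-HSC means were 46.5 CPM in A19 and 34.8 CPM in A23, against 38.6 and 34.3 CPM in MUL-HSC.

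PEM-HSC replicate 2 departed from the other libraries within the Hoxa window. In each of the 13 consecutive regions A11 to A23 (chr6:52158704-52185072, 26.4 kb), which hold the highest peaks of the cluster, it had the lowest level of all 13 libraries. Its sum there was 69.6 CPM, from 90 counts (95% exact Poisson interval 56.0 to 85.5 CPM, which covers counting error only), against 189 to 248 CPM with a median of 214 in the other 12 libraries. It thus held 32.5% of their median. A13 and A18 had 0 counts in it, A11, A14 and A16 had 0.773 CPM each, and A17, the highest per length, had 6.96 CPM against 21.7 to 34.2 in the others.

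Beyond the stretch the library was not uniformly low. At its edges, A10 had 6.96 CPM in replicate 2 against 0.575 to 22.6 in the others, and A24 had 15.5 CPM against 13.2 to 22.1. Over the 17 remaining regions of the Hoxa window the library had 113 CPM, against 99.5 to 158 in the others, although A2, A4 and A6 were also lowest in it. Its Hoxb total of 329 CPM and Meis1 total of 380.4 CPM were not low either.

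Within A11 to A23 the ranges of the groups overlapped. MUL-HSC had 206 ± 11.9 CPM (SD, n = 4), PLT-HSC 216 ± 18.8 (SD, n = 3) and PEM-HSC 229 ± 12.8 without replicate 2 (SD, n = 5), or 203 ± 66.3 with it (SD, n = 6). The stretch was chosen after its values were seen, so it carries no test. Whether the low signal belongs to the cells of this replicate or to its library was not tested.

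**Figure D5:**
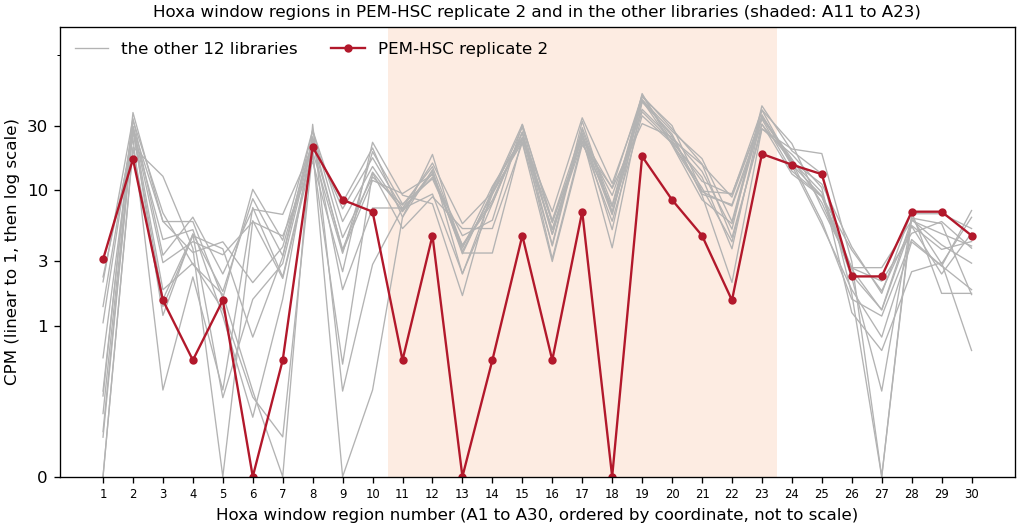
CPM (vertical axis, linear up to 1 and logarithmic above) of regions A1 to A30 of the Hoxa window in order of coordinate, with PEM-HSC replicate 2 in red and the other 12 libraries in grey. Over the shaded regions A11 to A23 the red line lies below every grey line and sums to 69.6 CPM against 189 to 248 CPM.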

How the data were processed

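Omni-ATAC-seq of sorted HSCs was deposited as a table of raw counts for 115295 regions in 13 libraries. Per the submitters' processing notes, the authors used Bowtie2, MACS2, Picard, SAMtools, FastQC and Trim Galore with the mm9 build. Not given in the sources used here are their versions and settings, the counting tool, any shift of read ends, whether peaks were called on pooled libraries, and whether starts count from 0 or 1. If peaks were called on pooled reads, regions open mainly in shallow libraries would be under-represented.

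Counts were tested in R 4.3.3 with edgeR 4.0.16 (filterByExpr by group, TMM, robust quasi-likelihood fit with 1 coefficient per group over all 13 libraries, two-sided), adjusted with Benjamini-Hochberg over the 59408 tested regions and called at 0.05. The test was also run on simulated counts with a common spread for all regions. Its outcome is not given here and is not used as support for any call. CPM uses the TMM-scaled totals of all regions, and standard errors are the fold change over the root of the F statistic. Window totals were compared as mean log2 CPM with exact permutation tests (scipy 1.17.1), 9 adjusted together. Sums over 25 kb steps and over flanks were not tested. Named are the called regions, the 3 of smallest joint p and the 3 of highest mean CPM per window, and any others are stated where named. Members and lists were chosen with earlier results of these data known.

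Alternatives were DESeq2 1.42.0, a surrogate variable (sva 3.50.0), a block for the replicate number, fits of only the 2 groups compared, totals without TMM, no filter or one at a mean of 20 counts, and leaving out each library or those under 2000000 counts. Sampling noise was exceeded in all 24 pairs of libraries of a group (chi-square per degree of freedom 1.44 to 2.46), so none was counted as a duplicate. Promoters and gene order come from RefSeq tables of GRCm38.p6.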

Additional observations from a re-analysis of the deposited data

Results flagged for a closer look

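In 76 groups of 4 to 10 libraries (window totals, 25 kb steps and named regions), the highest or lowest library was set against its group with Dixon's criterion, which chance meets in about 1 in 20. It was met in 6, of which 5 concern PEM-HSC replicate 2 and Hoxa and overlap in the regions they use. The Hoxa total of that library was 182 CPM, against 331 to 406 in the other 5 PEM-HSC libraries. Its sum over the third 25 kb step of the Hoxa window was 34.0 CPM against 101 to 121, and over the fourth step 66.5 CPM against 136 to 163. Region A14 had 0.773 CPM in it against 8.45 to 10.7, and region A19 had 17.8 CPM against 39.6 to 51.7. The sixth was region A6 in PEM-HSC replicate 3, with 10.2 CPM against 0 to 1.57 in the other PEM-HSC libraries.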

How the results depend on the processing

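Every call in these windows depended on the setting, and no called fold change changed sign. With 3, 2, 0 and 2 members called for PLT-HSC against MUL-HSC, PEM-HSC against MUL-HSC, PLT-HSC against PEM-HSC and any difference, DESeq2 called 1, 1, 0 and 1 (B4 each time) and no filter 4, 2, 0 and 3. A mean of at least 20 counts, under which B4 and M17 were not tested, called 0, 1, 0 and 0. Totals without TMM called 3, 2, 0 and 1, and a fit of the compared groups alone, where B4 was not tested for PLT-HSC against MUL-HSC, 0, 2 and 0. Leaving out the 5 libraries under 2000000 counts called 0, 0, 1 and 1 (A6, which passed the filter there only through PLT-HSC). With 1 surrogate variable, whose size of correlation with the first principal component was 0.996 and of whose variance 65.7% lay between the groups, 0 were called in each. Leaving out each library gave 0 to 4, 0 to 2, 0 to 1 and 0 to 3. The labels state no pairing by replicate number. Same-numbered libraries had correlations of -0.136 to 0.0992, and 0 of 3, 0 of 4 and 2 of 3 correlated best with their own number. With 3 or 4 pairs per comparison, these values cannot exclude a pairing by that number. With the number as a block 1, 0, 0 and 0 were called. The shares called over all tested regions under these alternatives are not given here. A loss or gain of calls in the windows can therefore not be told from one over the whole table.

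The Hoxa difference of PEM-HSC from MUL-HSC turned from -0.04 to 0.0946 without the libraries under 2000000 counts, and ran from -0.112 to 0.118 when each library was left out. The Hoxb difference of PLT-HSC from PEM-HSC turned to 0.0105 with totals alone and to 0.000448 without the shallow libraries, and ran from -0.110 to 0.0745 when each was left out. The Meis1 differences ran from -0.0232 to 0.0863 for PLT-HSC less MUL-HSC and from -0.0743 to 0.0336 for PLT-HSC less PEM-HSC. The causes were not tested. No window total passed after adjustment under any alternative, but no single window could have at these group sizes, so this says nothing about stability. Of the 35 other fold changes of named regions, with an unadjusted p of 0.05 or more, 18 changed sign in 60 of 730 alternatives, none of them called. MUL-HSC libraries with 1 to 4 counts in B4 limit how well its fold change is known.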

Other observations

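To see how rare the low stretch of the Hoxa window was, all runs of at least 6 consecutive regions in which 1 library was the lowest of all 13 were listed over the 59476 regions with a mean of at least 3 CPM. There were 5 such runs. The run of 13 regions in PEM-HSC replicate 2 at Hoxa was the longest, and the next, of 7 regions, lay on chromosome X (chrX:72984795-72999869) in PEM-HSC replicate 6. That run held 90.8 CPM in the low library against 149 to 289 CPM in the others, 44.2% of their median. The 3 other runs, of 6 regions each, lay on chromosomes 3, 6 and 12 in MUL-HSC replicate 2, PEM-HSC replicate 5 and PLT-HSC replicate 1, at 77.4%, 42.5% and 19.0% of the median of the others. The search was made after the Hoxa values were seen and is a description without a test.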
